A study of Mus musculus with 12 samples.

Results

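Fibronectin and 9 subunits of the integrins that bind it and its neighbours in the matrix were followed in the aorta of untreated mice, of mice on the vasodilator minoxidil and of mice taken off it. The genes were chosen by symbol, with earlier results of these data known. They were fibronectin (Fn1), the alpha subunit genes Itga1, Itga5, Itga8, Itga9 and Itgav, and the beta subunit genes Itgb1, Itgb3, Itgb5 and Itgb8. These are 10 of the 50600 genes counted, each with 1 gene ID, and all 10 passed the expression filter that kept 24660 genes for testing.

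RNA sequencing was done on the stretch of aorta that runs from the left subclavian artery to the diaphragm. All 12 mice were C57BL/6J with the genotype Elastin +/-, that is, with 1 working copy of the elastin gene, so no comparison here involves a wild-type aorta. The control group (4 mice) drank regular water. The on-drug group (4 mice) drank minoxidil from 2.5 to 3 months of age, a course labelled as 2 weeks. The off-drug group (4 mice) had the same course and then drank drug-free water for 1 week. Every sample carries the label of 3 months of age. Whether the off-drug mice were older at harvest by the drug-free week is not stated in the labels, and if they were, withdrawal and age cannot be told apart. The protocol gives 4 mice and the files 4 libraries per group, and p-values measure the spread between those libraries.

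Integrins are receptors made of 1 alpha and 1 beta chain that span the cell membrane and tie the matrix outside to actin inside. The alpha 5 beta 1 pair is the classical fibronectin receptor and pulls fibronectin dimers into fibrils; alpha 8 beta 1 and the alpha v integrins also recognise the short RGD motif of fibronectin and other ligands. Alpha 1 beta 1 binds collagens and laminins, alpha 9 beta 1 binds tenascin-C, osteopontin and the EDA segment of fibronectin, and alpha v beta 8 is known for activating latent TGF-beta. In the arterial wall alpha 8 and alpha 1 are typical of contractile smooth muscle.

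Total counts ran from 41524501 to 109423243 per library, and the members had between 369 and 487818 reads in a library, so that counting error was at most 5.21%. Smooth muscle markers were abundant throughout (8 genes summed to between 15972 and 20897 counts scaled to sequencing depth, CPM), and every one of the 8 fibroblast, 8 endothelial and 8 macrophage markers was above the filter as well. The tissue was therefore a mixture, and fewer cells of a type and less RNA per cell cannot be told apart for any gene below. Reads were counted without strand and assigned to every gene they overlap. Of the Fn1 exon bases 2.50% are shared with the antisense gene Apol7d, of the Itga8 exon bases 5.05% with the antisense gene E030013I19Rik, and of the Itgav exon bases 5.90% with Gm13684. Reads in those stretches cannot be assigned to 1 gene. The other 7 members share no exon base with another gene.

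The promoters of both chains of the classical fibronectin receptor are shown because Itga5 was called together with fibronectin on drug and its partner Itgb1 was not. RefSeq windows (GRCm38.p6) were found for 8 of the 10 members, and not for Fn1 and Itgb3. The 250 bases before the start of Itga5 lie at chr15:103366792-103367041 (minus strand) and those of Itgb1 at chr8:128685404-128685653 (plus strand), both outside annotated exons. Capitals mark GC boxes (GGGCGG or CCGCCC) and, at the end of the Itgb1 window, a TEAD motif (GGAATG).
Itga5: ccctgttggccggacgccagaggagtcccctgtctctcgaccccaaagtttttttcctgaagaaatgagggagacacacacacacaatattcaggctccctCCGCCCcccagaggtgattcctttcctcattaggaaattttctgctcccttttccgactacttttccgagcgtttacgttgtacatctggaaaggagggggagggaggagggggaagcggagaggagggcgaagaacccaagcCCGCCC
Itgb1: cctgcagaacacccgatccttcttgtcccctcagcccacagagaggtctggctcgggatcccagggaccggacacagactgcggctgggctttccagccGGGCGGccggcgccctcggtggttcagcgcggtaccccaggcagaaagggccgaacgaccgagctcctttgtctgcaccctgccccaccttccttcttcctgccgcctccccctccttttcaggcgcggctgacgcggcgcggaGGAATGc
Both strands were searched for 7 motifs. Beside the GC box and the TEAD motif these were the AP-1 motif, spelled TGANTCA, and the cyclic AMP response element, spelled TGACGTCA. The E-box was searched as CACGTG and the core promoter element TATA as TATAAA. The CArG box, bound by serum response factor, was searched as CC, then 6 letters of A or T, then GG. The Itga5 window held 2 GC boxes, 149 and 6 bases before the start, and none of the other 6 motifs. The Itgb1 window held 1 GC box, 151 bases before the start, and 1 TEAD motif, 7 bases before it. Of 32851 promoter windows of this length 32.7% hold a GC box, 12.6% a TEAD motif, 6.75% an AP-1 motif and 1.47% a CArG box, so these matches describe the letters and no more.

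To compare genes with each other, counts were scaled to exon length (RPKM, CPM per kilobase of exon). In controls Itga8 was the highest of the 10 genes at 619 ± 33.8 RPKM (mean ± SD, n = 4) and ranked 80 of all 24660 genes tested. Itgb1, the partner of alpha 1, 5, 8 and 9, followed at 244 ± 3.89 RPKM, then Itgb5 at 198 ± 11.2 RPKM and Fn1 at 166 ± 8.44 RPKM. Below them came Itga9 at 79.9 ± 6.15, Itga1 at 35.8 ± 1.54 and Itga5 at 28.0 ± 3.01 RPKM. Itgav (12.97 ± 1.61 RPKM) and Itgb3 (12.1 ± 2.02 RPKM) were neighbours whose libraries overlapped, and these 2 did not differ beyond their spread. Itgb8 was the lowest at 2.03 ± 0.248 RPKM, at percentile 49.0 of all genes tested, whereas the other 9 members stood at percentile 83.5 or above.

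**Figure D1:**
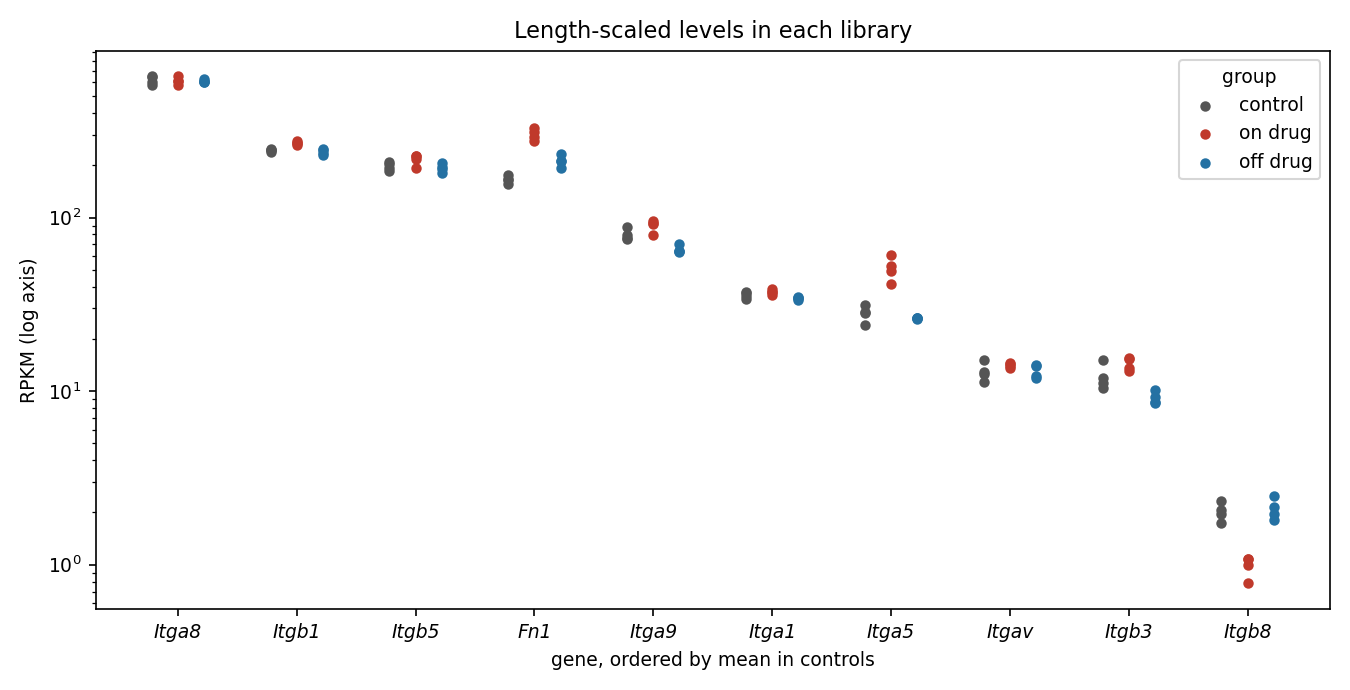
Length-scaled expression (RPKM, log axis) of the 10 genes in each of the 12 libraries, 1 point per library, coloured by group and ordered by the control mean. Itga8 stays on top in all groups at 578 RPKM or more, Fn1 climbs from rank 4 in controls to rank 2 on drug, and Itgb8 is lowest throughout at 2.47 RPKM or less.

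The same order held on drug and off drug with a few exchanges, among them Itgb3 and Itgav on drug, whose libraries overlapped. On drug Fn1 reached 301 ± 22.1 RPKM and passed Itgb5 and Itgb1, although its lowest library overlapped the Itgb1 libraries (268 ± 6.46 RPKM). Itga5, at 51.0 ± 8.19 RPKM, passed Itga1 (37.3 ± 1.32 RPKM) without overlap. Off drug Itga5 was back below Itga1, and Fn1 lay between Itgb1 and Itgb5 and overlapped both. As a share of the summed RPKM of the 5 alpha genes, Itga8 held 79.8% ± 1.30 in controls, 76.2% ± 1.497 on drug and 81.5% ± 0.413 off drug, and Itga5 held 3.63% ± 0.524, 6.33% ± 1.04 and 3.50% ± 0.0602. Among the 4 beta genes Itgb1 and Itgb5 held 53.5% ± 1.66 and 43.4% ± 1.501 in controls and nearly the same in the other groups. Itgb8 held 0.445% ± 0.0622 in controls, 0.198% ± 0.0298 on drug and 0.474% ± 0.0791 off drug.

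The first comparison asked which of these genes differed after 2 weeks of minoxidil. The ligand and 1 of its receptor chains rose by the same factor of 1.82, Fn1 and Itga5, while Itgb8 fell to 0.487 of its control level. The other 7 members were not called, with fold changes between 0.992 and 1.19. A gene is said to have risen or fallen, or to be called, when its adjusted p in edgeR's quasi-likelihood test was below 0.05 over all genes. By that rule 2 of 10 members were higher and 1 was lower, against 4.13% and 2.94% of all genes tested. The median log2 fold change of the members was 0.13, beside 0.00 for all genes. Because the members were chosen with earlier results known, these counts and medians, here and below, describe them without a test of the set.

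**Figure D2:**
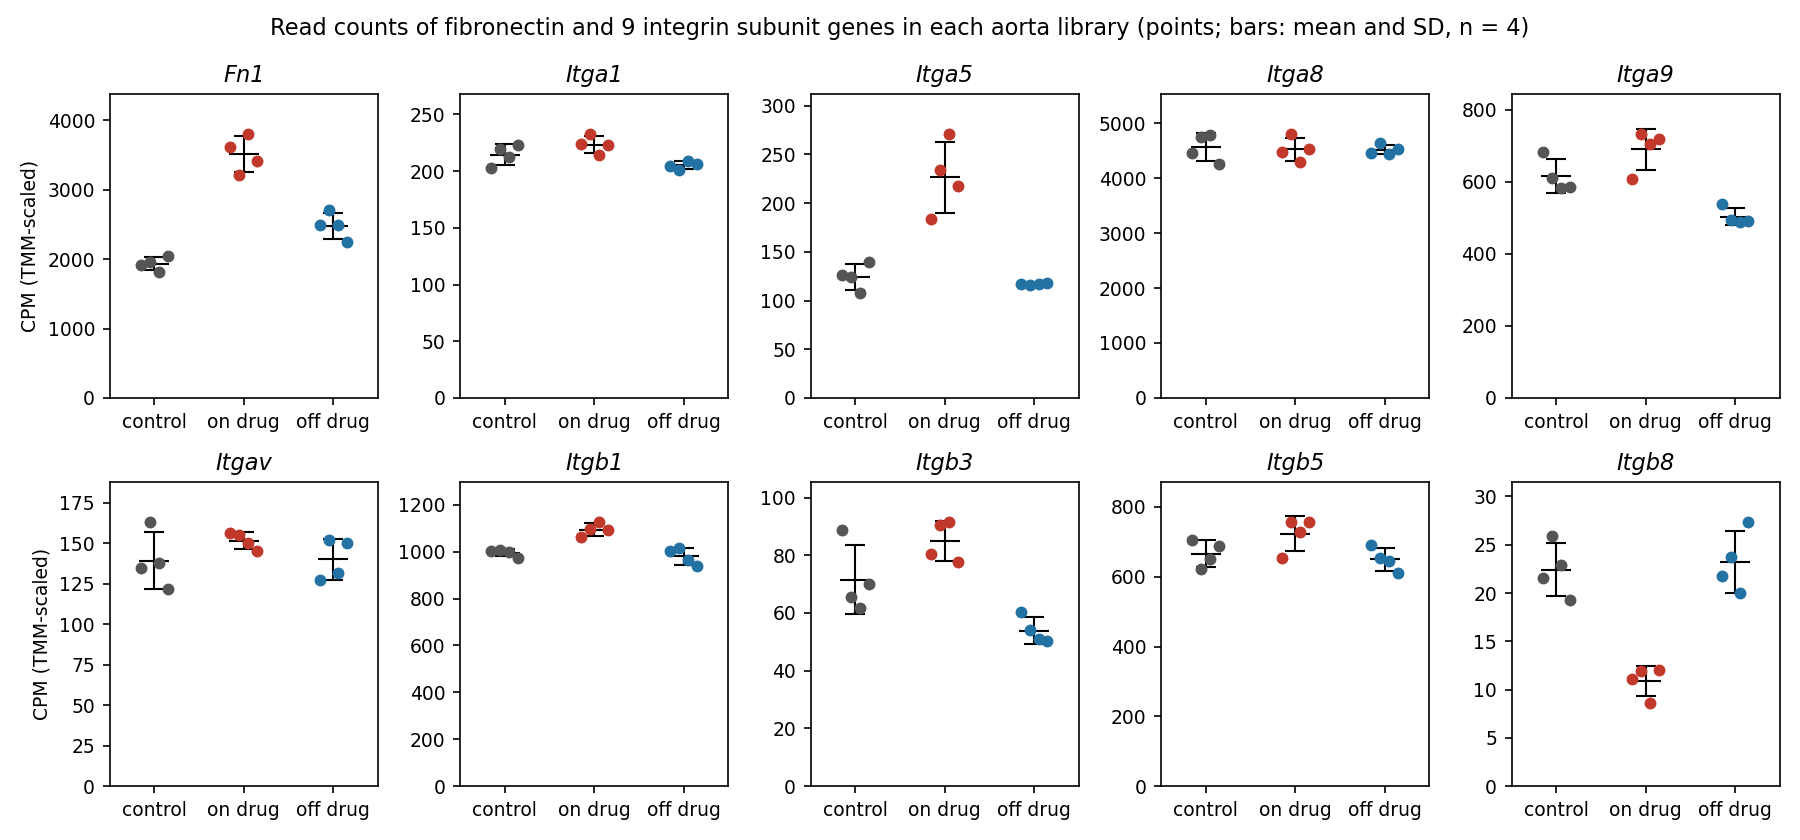
CPM of each gene in every library (points) with the mean and SD of each group (n = 4); each panel has its own axis, which starts at 0. The on-drug points of Fn1 (3211 or more) and Itga5 (184 or more) lie above all others, those of Itgb8 (11.98 or less) lie below all others, and Itga8 is level.

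Fibronectin is the ligand of the set, a secreted dimer that cells assemble into fibrils. Fn1 (ENSMUSG00000026193.15, chromosome 1, 71585520 to 71653200, minus strand, GRCm38) had 1919, 1959.6, 1813 and 2051 CPM in the 4 controls. On drug it had 3622, 3211, 3809 and 3416 CPM, and off drug 2486, 2712, 2486 and 2251 CPM. The 3 groups formed 3 separate bands with no overlap, the controls lowest and the off-drug libraries in the middle. On drug the log2 fold change over controls was 0.86 ± 0.07 (SE) with an adjusted p of 2.9e-06, the second smallest p-value of the comparison. Its antisense neighbour Apol7d moved alongside, with 0.87 on the log2 scale (adjusted p = 6.6e-06). That gene had at most 22616 reads in a library where Fn1 had at least 103873, and 13.96% of its own exon bases lie in Fn1 exons.

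Itga5 encodes the alpha chain whose known partner is beta 1. Itga5 (ENSMUSG00000000555.7, chromosome 15, 103344286 to 103366763, minus strand) had 127, 125, 107 and 139.9 CPM in controls. It had 184, 234, 271 and 218 CPM on drug, and 117, 116, 117 and 118 CPM off drug. Every on-drug library was above every other library, and the controls enclosed the off-drug values. The log2 fold change on drug was 0.86 ± 0.10 (adjusted p = 0.000102). Leaving out single libraries or changing the other settings gave between 0.76 and 0.94, always called. In RPKM the ratio of Itga5 to Itga8 was 0.0456 ± 0.00721 in controls, 0.0833 ± 0.0153 on drug and 0.0429 ± 0.000878 off drug. The ratio of Fn1 to Itga5 was 5.94 ± 0.364 in controls and 6.00 ± 1.05 on drug, and 8.08 ± 0.651 off drug.

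Itgb8, a beta chain that pairs only with alpha v, was the sole member to fall on drug. Itgb8 (ENSMUSG00000025321.14, chromosome 12, 119158022 to 119238802, minus strand) had 21.6, 25.9, 22.9 and 19.3 CPM in controls. It had 11.1, 11.9, 8.63 and 11.98 CPM on drug and 21.7, 23.8, 19.97 and 27.4 CPM off drug. The on-drug libraries lay below all 8 others, while controls and off-drug libraries overlapped. The log2 fold change was -1.04 ± 0.12 on drug (adjusted p = 8.2e-05) and between -1.11 and -0.95 in the other settings, each of which called it.

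The remaining beta chains had positive log2 fold changes on drug that did not pass. Itgb1 (ENSMUSG00000025809.15, chromosome 8, 128685654 to 128733200, plus strand), the shared partner of most alpha chains, had 1003, 1008, 997 and 973 CPM in controls and 1063, 1097, 1127 and 1091 CPM on drug. The groups did not overlap, and the controls had a coefficient of variation of 1.59%, but the difference of 0.14 ± 0.05 (log2) did not pass (adjusted p = 0.124). DESeq2 called it (adjusted p = 0.0433), and the other settings did not, with adjusted p up to 0.326. Itgb3, the beta chain of the vitronectin receptor and of the platelet integrin, had 88.7, 65.7, 61.7 and 69.9 CPM in controls and 80.4, 90.4, 91.6 and 77.6 CPM on drug. Control replicate 1 reached into the on-drug range. Including that library gave 0.25 ± 0.10 (log2, adjusted p = 0.143), and leaving it out gave 0.36 (adjusted p = 0.00917), so that 3 members in place of 2 were called higher. Itgb5 (ENSMUSG00000022817.14, chromosome 16, 33829665 to 33949153, plus strand), a partner of alpha v and a receptor for vitronectin, had 622 to 705 CPM in controls and 652 to 757 CPM on drug (0.12 ± 0.06, adjusted p = 0.296).

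The other alpha chains overlapped between groups. Itga8 (ENSMUSG00000026768.10) lies on chromosome 2 from 12106632 to 12301922 (minus strand), Itgav (ENSMUSG00000027087.11) on chromosome 2 from 83724397 to 83806916 (plus strand) and Itga1 (ENSMUSG00000042284.9) on chromosome 13 from 114958079 to 115101964 (minus strand). Itga8, the most abundant member, had 4261 to 4792 CPM in controls and 4302 to 4811 CPM on drug (-0.01 ± 0.06, adjusted p = 0.941), and its sign changed in 3 of 21 other settings. Itga9 ranged from 581 to 683 CPM in controls and from 607 to 733 CPM on drug (0.17 ± 0.07, adjusted p = 0.159). Itgav, the alpha chain of the vitronectin receptor, ranged from 122 to 163 CPM and from 145 to 156 CPM (0.12 ± 0.08, adjusted p = 0.396). Itga1, the collagen receptor chain, had 202 to 223 CPM in controls and 214 to 233 CPM on drug (0.06 ± 0.05, adjusted p = 0.570).

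**Figure D3:**
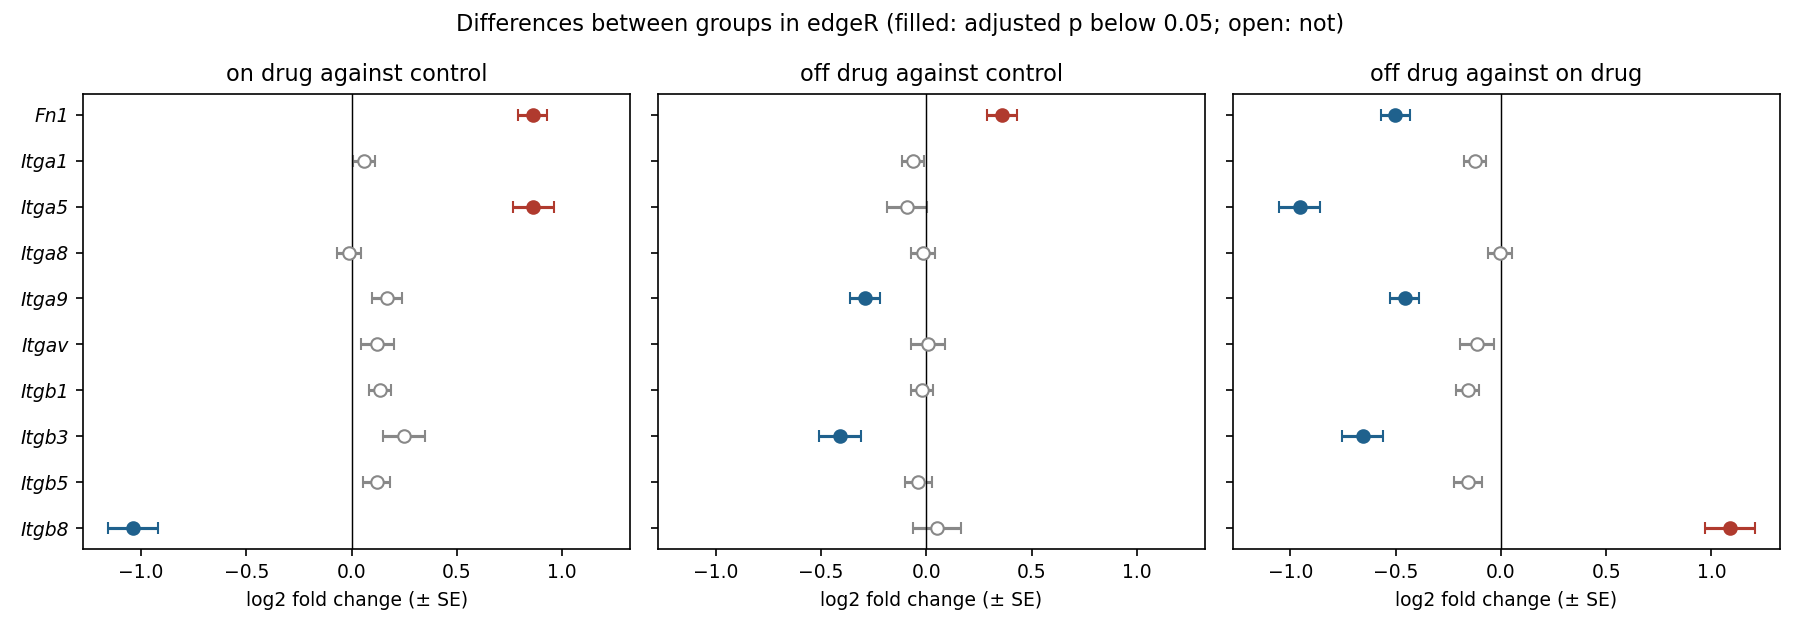
Log2 fold change with its SE for each gene in the 3 comparisons; filled points passed an adjusted p of 0.05 and open points did not. Fn1 and Itga5 (both 0.86) and Itgb8 (-1.04) stand apart on drug, Fn1 (0.36), Itga9 (-0.29) and Itgb3 (-0.41) differ from controls off drug, and 5 genes differ between off drug and on drug.

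The second comparison asked what remained 1 week after the drug was withdrawn. Fibronectin was still above controls, 2 integrin chains that had not been called on drug were below controls, and Itga5 and Itgb8 lay within the control range or overlapped it. In all, 1 of 10 members was called higher and 2 lower, against 6.27% and 5.77% of all genes tested, with a median log2 fold change of -0.03 beside -0.01 for all genes. Fn1 stood 1.28-fold above controls (log2 fold change 0.36 ± 0.07, adjusted p = 0.00211), and the lowest off-drug library, at 2251 CPM, was above the highest control.

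Itga9 was below controls off drug. Itga9 (ENSMUSG00000039115.13, chromosome 9, 118606690 to 118901003, plus strand) encodes the alpha chain whose pair with beta 1 binds tenascin-C. It had 683, 611, 581 and 584 CPM in controls, 607, 733, 703 and 717 CPM on drug and 539, 495, 487 and 491 CPM off drug. All off-drug libraries lay below all others. The log2 fold change against controls was -0.29 ± 0.07 (adjusted p = 0.0107), and scaling to library size without composition factors ended the call (-0.23, adjusted p = 0.0647).

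Itgb3 (ENSMUSG00000020689.4, chromosome 11, 104608000 to 104670476, plus strand) had 60.3, 54.2, 50.8 and 50.3 CPM off drug. Each of these was below the lowest control, which had 61.7 CPM, by a margin that was small for off-drug replicate 1. The log2 fold change was -0.41 ± 0.10 (adjusted p = 0.0134), and -0.29 without control replicate 1 (adjusted p = 0.0173). Over the 21 other settings its adjusted p reached at most 0.0441. Itgb3 is also a platelet gene. Of all genes tested, 4.13% were higher and 2.94% lower on drug, and 6.27% and 5.77% off drug against controls. Off drug against on drug the shares were 5.44% and 6.92%. Of 7 platelet markers edgeR called 0 in each comparison, which is near those shares. In each comparison 1 of them had an unadjusted p below 0.05. DESeq2 called 0, and limma-voom called 1, lower off drug than on drug. Those markers summed to 37.8 to 56.7 CPM in controls, 41.8 to 46.4 CPM on drug and 38.8 to 54.3 CPM off drug, so that the groups overlapped. Off drug against controls their SE on the log2 scale ran from 0.08 (Pf4) to 0.71 (Tubb1). The part of platelets in the fall of Itgb3 was not tested.

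The other 7 members did not pass against controls. On the log2 scale Itga5 was at -0.09 ± 0.10 (adjusted p = 0.609) and Itgb8 at 0.05 ± 0.12 (adjusted p = 0.833). For Itga1, Itga8, Itgav, Itgb1 and Itgb5 the values lay between -0.06 and 0.01, with SE of 0.05 to 0.08 and adjusted p of at least 0.493. The signs of Itga8, Itgav, Itgb1, Itgb5 and Itgb8 changed in 1 to 4 of 21 other settings.

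The third comparison set the off-drug libraries against the on-drug ones. It shares libraries with both comparisons above, so its values restate the same levels from the other side. Here 4 members were lower and 1 was higher, against 6.92% and 5.44% of all genes tested, and the median log2 fold change was -0.16 beside -0.00 for all genes. Itga5 fell by 0.95 (SE 0.10, adjusted p = 8.0e-06), Itgb3 by 0.66 (SE 0.10, adjusted p = 0.000339), Fn1 by 0.50 (SE 0.07, adjusted p = 7.75e-05) and Itga9 by 0.46 (SE 0.07, adjusted p = 0.000218). Itgb8 rose 2.13-fold (1.09 ± 0.12, adjusted p = 9.8e-06). For these 5 genes every other setting kept the call. Their groups did not overlap, but neither did those of Itga1 and Itgb1, which were not called. The share of all genes without overlap was not counted, so this only describes the libraries of these members.

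Itgb1 came close to the threshold in this comparison. It had 1002, 1017, 964 and 939 CPM off drug, all below the on-drug libraries (-0.16 ± 0.05 on the log2 scale, adjusted p = 0.0559). A stricter filter (0.0352), DESeq2 (0.00697) and limma-voom (0.00965) called it. Itgb5, with 609.9 to 691 CPM off drug, had -0.16 ± 0.06 (adjusted p = 0.132), and limma-voom called it (0.0306). Itga1 had 201 to 209 CPM off drug, below the lowest on-drug library, but the difference of -0.12 ± 0.05 did not pass (adjusted p = 0.147). Itgav and Itga8 overlapped, with -0.11 ± 0.08 and -0.00 ± 0.06.

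Lists around the members showed which other genes of integrin adhesion moved. All members of these lists were above the filter. The 17 other integrin subunit genes had a median log2 fold change of 0.27 on drug. Against 4.13% and 2.94% of all genes, 4 of them were higher and 0 lower. They were Itga3, a laminin receptor chain (82.7 ± 8.27 to 116 ± 10.4 CPM), Itga11, a collagen receptor chain (7.08 ± 0.595 to 10.7 ± 1.07 CPM), Itgb4, the hemidesmosome chain (8.07 ± 0.993 to 12.7 ± 1.31 CPM) and the leukocyte chain Itgam (9.95 ± 0.985 to 14.8 ± 2.26 CPM). Off drug 3 were below controls and 0 above, against 5.77% and 6.27% of all genes, with a median of -0.01. The 3 were Itgam (-0.45), Itga10 (-0.40) and the leukocyte chain Itgb2 (-0.50). Against the on-drug group 5 were lower and 0 higher, beside 6.92% and 5.44% of all genes. The 5 were led by Itgam (-1.02), Itga3 (-0.50), Itga11 (-0.65) and Itgb4 (-0.63). Itgam is read from 2 overlapping gene IDs, of which the one with more reads was used. Itgb2 was not called on drug (0.20, adjusted p = 0.474), and the leukocyte chain Itgal was called in none of the 3 comparisons (0.33 off drug against controls, adjusted p = 0.471). Of 8 macrophage markers edgeR called 2 higher on drug, Cd163 (0.46) and Csf1r (0.23), against 4.13% of all genes, and the 6 others did not pass, with Adgre1 (-0.22) and Fcgr1 (-0.43) negative. Off drug 3 of 8 were lower than in controls, Adgre1, C1qa and C1qb, against 5.77% of all genes, and the 5 others did not pass, with Csf1r (0.13) and Cd68 (0.02) positive. Against the on-drug group 5 of 8 macrophage markers were lower and 0 higher, beside 6.92% and 5.44% of all genes. All 8 log2 fold changes were negative there (median -0.30). The markers summed to 394 to 488 CPM in controls, 445 to 493 CPM on drug and 354 to 388 CPM off drug. Their part in the leukocyte chains was not tested.

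Some other ligands of these integrins were higher on drug. Of 27 ligand genes 11 were called higher, 0 lower and 16 were not called, with a median of 0.20. Of all genes tested 4.13% were higher and 2.94% lower. The 4 with the smallest adjusted p were von Willebrand factor (Vwf, 0.58 ± 0.07), which is also on the endothelial marker list, type I collagen (Col1a1, 0.85 ± 0.11), type IV collagen (Col4a2, 0.50 ± 0.08) and fibrillin-1 (Fbn1, 0.40 ± 0.07). Off drug 3 ligands were above controls and 7 below, against 6.27% and 5.77% of all genes, with a median of -0.16. Among them were Fbn1 (-0.60 ± 0.07), Col3a1 (-0.64 ± 0.10) and Ctgf (-0.60 ± 0.12), which fell, and thrombospondin-2 (Thbs2, 0.58 ± 0.07), which rose. Against the on-drug group 14 fell and 1 rose, beside 6.92% and 5.44% of all genes. The falls were led by Fbn1 (-0.999 ± 0.07) and the alpha 9 ligand tenascin-C (Tnc, -0.82 ± 0.09). Col4a1 (-0.65 ± 0.08) and Col1a1 (-1.01 ± 0.11) came next. Off drug Fn1 was thus above controls and Fbn1 and Col3a1 were below them.

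The list written around fibronectin assembly and its partners had the largest share of calls among the 4 lists in the on-drug and off-against-on comparisons. Whether each of its genes acts on fibronectin in this tissue was not tested. The list held 18 genes, and on drug 4.13% of all genes were higher and 2.94% lower. On drug 10 of 18 were higher and 0 lower (median 0.27), with tenascin-X (Tnxb, 546 ± 18.4 to 863 ± 12.3 CPM), fibulin-2 (Fbln2, 174 ± 14.7 to 278 ± 23.6 CPM), tensin-1 (Tns1, 688 ± 71.2 to 993 ± 106 CPM), which links integrins to actin and carries them into fibrillar adhesions, and annexin A2 (Anxa2, 223 ± 15.6 to 300.5 ± 21.0 CPM). Off drug 4 were below controls and 1, Tnxb (0.21 ± 0.06), above, against 5.77% and 6.27% of all genes, with a median of -0.05. Syndecan-4 (Sdc4), a co-receptor that binds the heparin-binding part of fibronectin, averaged 260.2 ± 23.1 CPM without treatment and 166 ± 6.65 CPM after withdrawal (-0.65 ± 0.07, adjusted p = 1.4e-05). S100a10 (-0.87), Anxa2 (-0.34) and Fstl1 (-0.31) were the others that fell. Against the on-drug group 14 of 18 fell and 1 rose (median -0.33), beside 6.92% and 5.44% of all genes. The 14 were led by Anxa2 (-0.77), Sdc4 (-0.72), Fbln2 (-0.69) and Fstl1 (-0.57).

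Of 21 activators and adaptors at the integrin tail 7 were higher and 0 lower on drug, against 4.13% and 2.94% of all genes. The median of the list was 0.17. Vinculin (Vcl, 310.4 ± 19.7 to 402 ± 28.8 CPM), Src, talin-1 (Tln1, 762 ± 64.8 to 926 ± 56.9 CPM) and talin-2 (Tln2) led by adjusted p, and their log2 fold changes lay between 0.24 and 0.37. Off drug the kindlin gene Fermt2 (-0.39 ± 0.06) and Rap1a (-0.41 ± 0.11) were below controls and Sharpin, which encodes an integrin inhibitor (0.28 ± 0.07), was above. These were the 3 calls of the list, 2 lower and 1 higher, beside 5.77% and 6.27% of all genes, with a median of -0.07. Against the on-drug group 9 of 21 were lower and 0 higher, beside 6.92% and 5.44% of all genes. Among the 9 were Vcl (-0.47), Fermt2 (-0.40), Tln2 (-0.33) and Lims2 (-0.35). Of the genes in these 4 lists edgeR called 0 lower on drug, while 2 ligands and 1 adaptor had an unadjusted p below 0.05 in that direction. DESeq2 called 1 adaptor and limma-voom 1 ligand lower. The lists were written with earlier results of these data in view, and their counts describe these genes without a test of the list.

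**Figure D4:**
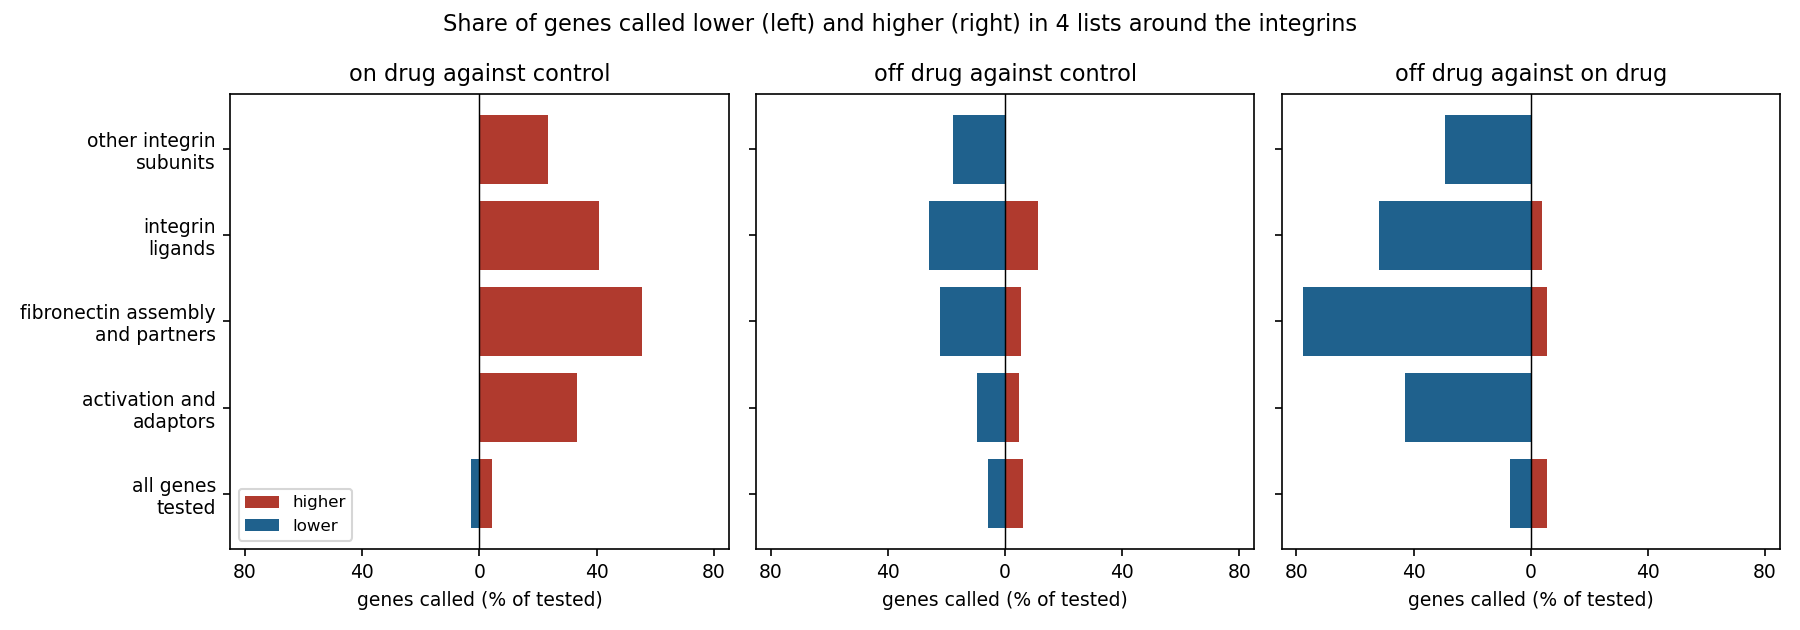
Share of genes called lower (bars to the left) and higher (bars to the right) in each comparison for 4 lists, beside all 24660 genes tested. On drug the calls in all 4 lists are higher (4 of 17, 11 of 27, 10 of 18 and 7 of 21), and against the on-drug group nearly all are lower.

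Markers of the cell types in the wall were read in the same fits, where 4.13% of all genes were called higher on drug, 6.27% higher and 5.77% lower off drug than in controls, and 5.44% higher and 6.92% lower off drug than on drug. Endothelial markers summed to 658 to 761 CPM in controls, 844 to 1003 CPM on drug and 608 to 799 CPM off drug, so that the on-drug sums lay above the others. Of 8 genes 2 were called higher on drug, 1 was lower off drug than in controls and 4 were lower off drug than on drug. Lymphatic markers summed to 76.4 to 103, 127 to 160.1 and 58.4 to 77.4 CPM in the same order, again highest on drug. Of 7 genes 4 were higher on drug, 1 was lower off drug than in controls and 4 were lower off drug than on drug. Smooth muscle markers summed to 15972 to 18472, 18208 to 20897 and 17519.9 to 20044 CPM, and these ranges overlapped. Of 8 genes 2 were higher on drug, and 1 was higher and 1 lower off drug than on drug. Smtn (0.55), Myh11 (0.28) and Lmod1 (0.25) were the 3 higher off drug than in controls. In that comparison Cnn1 (-0.25) and Myocd (-0.30) were negative, where edgeR called 0 lower and DESeq2 called 2 lower. Fibroblast markers summed to 3007 to 3632, 3188 to 3488 and 3058 to 3408 CPM, and the ranges of both treated groups lay inside that of the controls. Of 8 genes 1 was higher on drug, 1 was lower off drug than in controls and 4 were lower off drug than on drug. Their part in the changes of Fn1, Itga5 and Itgb8 was not tested. No marker was at 0 in all libraries.

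Among 9518 well expressed, named genes, those with the pattern most like each moving member over the 12 libraries were taken by Pearson correlation of log2 CPM, as a description, since the 3 groups shape every such value. For Fn1 they were Apol7d (r = 0.99), with which it shares reads, Tnxb (0.97), Thbs3 (0.96) and the desmosome gene Dsp (0.95). After the group means were removed the values were 0.90, 0.50, 0.64 and 0.09. For Itga5 they were Ehd2, a caveolar ATPase gene (0.98), the actin cross-linker filamin C (Flnc, 0.98), Mir22 (0.97) and Sorbs2, an adhesion adaptor (0.97), and these stayed at 0.83, 0.89, 0.88 and 0.81 within groups. For Itgb8 they were Gstk1 (0.95), Ing3 (0.94), Amd1 (0.94) and the potassium channel gene Kcnq5 (0.94), at 0.69, 0.53, 0.55 and 0.79 within groups.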

How the data were processed

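The authors' deposited files hold read counts per gene for each of 12 libraries, assigned to GENCODE M13 genes by featureCounts (1.4.6-p3) with the annotation of a STAR 2.5.3a index, per the file headers. STAR and GRCm38 are named in the submitters' processing notes. The options assigned multi-mapping reads and reads over several genes to each gene, ignored duplicates and set no strand, per the file headers. The deposited series table holds log2 values. These equalled log2(count / DESeq2 size factor + 1) within 1e-04 and were used only for symbols and coordinates.

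Counts were analysed with edgeR 4.0.16 in R 4.3.3. Genes passed filterByExpr (minimum count 10, minimum total 15), TMM scaled the libraries, and 1 robust quasi-likelihood model with 3 groups was fitted to all 12 libraries. P-values are two-sided and adjusted by Benjamini-Hochberg over 24660 genes. SE were derived from the F statistic. CPM and RPKM use TMM-scaled library sizes, and RPKM the deposited exon length. Steps were tested on simulated counts. Within groups, every pair of libraries differed by more than sampling noise (chi-square per degree of freedom of at least 26.2).

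The 10 members and all lists were chosen with earlier results of these data known. Values were given for all members, per library for those called, and for up to 4 called genes of each list per comparison by smallest adjusted p. For Fn1, Itga5 and Itgb8 the 4 most similar genes (mean log2 CPM 3 or more) were named. Lists with more than 1 gene ID per symbol used the one with the most reads. Marker lists of fat, skeletal muscle and Schwann cells were also read, beside the same shares of all genes as the other markers. Fat markers summed to 130 to 527 CPM in controls, 206 to 354 CPM on drug and 74.6 to 426 CPM off drug. Off drug against controls their SE on the log2 scale ran from 0.46 (Lipe) to 1.13 (Ucp1). With that spread an absence of calls does not show equal fat content. Fat and Schwann cell lists had 0 of 8 genes called by edgeR in each comparison (unadjusted p below 0.05: 0 fat genes, and 3 Schwann genes on drug and 1 off drug against on drug, which DESeq2 called), and skeletal muscle 2 of 8 higher on drug, 2 of 8 higher off drug than in controls and 1 of 8 higher off drug than on drug. Alternatives were other scalings, filters and tools (DESeq2 1.42.0, limma 3.58.1), a non-robust fit, the compared groups alone, a replicate block and each library left out.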

Additional observations from a re-analysis of the deposited data

Results flagged for a closer look

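In groups of 4 libraries, the gap of the highest or lowest library to its nearest neighbour was compared with the group's range (Dixon's test, 95% limit). Of 30 gene and group combinations, 1 passed, and chance alone flags about 1 in 20. It was Itga9 off drug, where replicate 1 stood at 539 CPM against 487 to 495 CPM in the other libraries. Its gap was 0.855 of the range, and it was still below every control.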

How the results depend on the processing

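Each comparison was repeated under 21 other settings. The counts of members called stayed within 1.5 times of those reported, with 1 exception: without composition factors 1 member in place of 2 was lower off drug than in controls (Itga9 lost its call). Of the 11 member calls, 10 held in every setting. Uncalled members that passed somewhere were Itgb1, Itgb3 and Itgb5, as given above. Leaving out single libraries gave 2 to 3 members higher on drug and left the other 5 counts as reported. Counts over all genes on drug moved more: without on-drug replicate 3 there were 472 higher and 331 lower, without control replicate 3 there were 541 and 365, and without on-drug replicate 4 there were 595 and 323. Without on-drug replicate 2 there were 665 higher. DESeq2 gave 1353 lower, the compared groups alone 463 and no composition factors 388, in place of 725. Off drug against controls, no composition factors gave 844 lower in place of 1422, and 1003 and 1029 were higher without control replicate 3 or off-drug replicate 1, in place of 1545. Replicate numbers are shared between groups, but same-numbered libraries did not deviate together (correlations from -0.29 to 0.18 in 12 pairs, with 3 of 12 libraries closest to their own number). With the replicate block the members called were 2 higher and 1 lower on drug, 1 and 2 off drug, and 1 and 4 off drug against on drug, as without it. Depth limited no member: the lowest, Itgb8, had at least 369 reads.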

Other observations

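The spread of Itga5 differed between groups. Its 4 off-drug libraries lay within 116 to 118 CPM, a coefficient of variation of 0.540%, where counting error alone is 0.899% to 1.25% per library, so the spread was smaller than that of counting. The on-drug libraries had a coefficient of variation of 16.04%.

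Replicate 1 of the control and off-drug groups had the highest Itga9, Itgb3 and Itgb5 of its group, and on-drug replicate 1 had the lowest Itga5, Itga9, Itgb1 and Itgb5 of its group. Replicate numbers did not pair the libraries, and these values are given without a test.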
